A study of Mus musculus with 18 samples.

Results

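Hox genes encode homeodomain transcription factors that give cells their position along the head-to-tail and limb axes. The 33 genes described here are the probe sets whose symbol is Hoxa, Hoxb, Hoxc or Hoxd followed by digits only, out of 19572 probe sets with a single gene symbol. Hox genes without such a probe set were not analysed here. Each measured gene had 1 probe set. The Hoxa cluster on chromosome 6 gave 8 members, the Hoxb cluster on chromosome 11 gave 9, the Hoxc cluster on chromosome 15 gave 9 and the Hoxd cluster on chromosome 2 gave 7.

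RNA of mouse pituitary and skin was measured on 18 Clariom S arrays, an Affymetrix design with mostly 1 probe set per gene, in 6 groups of 3. In each tissue the groups were lncKO mice, which lack the MIR205HG long noncoding RNA, miR-205 KO mice, which lack the microRNA miR-205, and wild-type (WT) mice. Each animal is labelled as a C57BL/6 female of 5 to 6 weeks. The extraction text names a piece of ear but stands beside the samples of both tissues, and skin was taken as ear skin from it. In skin, lncKO arrays are numbered 4 to 6, miR-205 KO arrays 7 to 9 and WT arrays 1 to 3; in pituitary the numbers are 13 to 15, 16 to 18 and 10 to 12 in that order of genotype. How either allele was made is not stated in the labels. Nothing in the labels states that a group's 3 samples are 3 different mice, so the p-values below describe sample-to-sample spread that could be technical in part or in full.

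Hox genes stand in 4 clusters, and their order along the chromosome follows the order in which they are expressed along the body: genes with low paralogue numbers act in the hindbrain and pharyngeal arches, those with high numbers in the tail, the distal limb and the urogenital region. Retinoic acid switches on the low-numbered end of a cluster in the embryo, Polycomb complexes keep unused Hox genes silent and Trithorax complexes keep used ones active. Adult fibroblasts keep the Hox pattern of the body site they came from. Hoxa2 is the member best known for the ear: in mouse embryos it gives the second pharyngeal arch its identity, and the external ear fails to form without it. The anterior pituitary develops from oral ectoderm, in front of the region where Hox genes are active in the embryo.

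The microRNA whose loss defines miR-205 KO mice is shown with its seed, bases 2 to 8, in capitals; RefSeq places it on the minus strand of chr1:193507503-193507524 (GRCm38.p6).
miR-205-5p: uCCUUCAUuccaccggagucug
The promoter windows of Hoxa2 and Hoxd8, the members called higher in the skin of both knockouts for which the RefSeq table used here held a window, cover 250 bases before to 50 bases after the annotated start. Hoxa2 lies on the minus strand at chr6:52164782-52165081 and Hoxd8 on the plus strand at chr2:74704365-74704664 (GRCm38.p6). Capitals mark the letters TGATNNAT (a motif of Pbx and Hox proteins, N being any base), TAATTA (a core of homeodomain sites) or CCAAT, searched on both strands.
Hoxa2: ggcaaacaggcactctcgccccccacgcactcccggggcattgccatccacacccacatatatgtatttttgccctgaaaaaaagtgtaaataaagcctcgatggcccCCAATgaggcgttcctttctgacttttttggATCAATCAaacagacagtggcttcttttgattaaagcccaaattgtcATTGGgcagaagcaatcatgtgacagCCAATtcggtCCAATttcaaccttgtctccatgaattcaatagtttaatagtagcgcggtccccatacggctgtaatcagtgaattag
Hoxd8: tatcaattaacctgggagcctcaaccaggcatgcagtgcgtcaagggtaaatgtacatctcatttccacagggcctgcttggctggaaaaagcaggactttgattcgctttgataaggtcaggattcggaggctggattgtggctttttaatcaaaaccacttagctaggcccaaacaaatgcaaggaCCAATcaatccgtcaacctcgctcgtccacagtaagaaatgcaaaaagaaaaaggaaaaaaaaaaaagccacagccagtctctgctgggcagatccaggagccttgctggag
The Hoxa2 window held 1 TGATNNAT, 4 CCAAT and 0 TAATTA matches, and the Hoxd8 window held 1 CCAAT match and 0 of the others. Of 32851 windows of this length in the table, 8.85% held TGATNNAT, 5.29% TAATTA and 37.4% CCAAT. Among the 19 windows found for 17 of the 33 Hox genes, 4 held TGATNNAT, 2 TAATTA and 13 CCAAT. A match is a run of letters and no evidence of binding.

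Values are intensities on the linear scale as deposited, and their log2 is called the log2 intensity. Levels of different probe sets were not compared, as each has its own response. A probe set was taken as above background on an array when it exceeded the 95th percentile of 1436 chemosensory receptor probe sets of that array, genes that neither tissue is known to use broadly. That limit was an intensity of 26 to 35. It was counted as above background in a group only when it was so on all 3 arrays.

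Most Hox genes gave no signal above background in either tissue. Of the 33 members, 24 stayed below the limit on all 18 arrays, with intensities of 4 to 26: 5 of 8 in the Hoxa cluster, 6 of 9 in Hoxb, 8 of 9 in Hoxc and 5 of 7 in Hoxd. By position in the clusters, 0 of the 2 measured genes of paralogue group 1, 5 of 6 of groups 2 to 4 (Hoxa2, Hoxa3, Hoxa4, Hoxb2 and Hoxb3), 4 of 16 of groups 5 to 10 (Hoxb7, Hoxc9, Hoxd8 and Hoxd10) and 0 of 9 of groups 11 to 13 were above background on at least 1 array. This rule is looser than all 3 arrays of a group, which Hoxa3 and Hoxb3 met in no group. The share of all named probe sets under the looser rule was not computed, so the counts by position have no baseline here. Hoxa3 passed on 1 array of lncKO skin only. Groups 11 to 13 are the members known for the distal limb and the tail. A probe set below background shows a level too low for this array and not that the gene is silent.

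In pituitary, 3 members were counted above background in lncKO mice (Hoxa4, Hoxb7 and Hoxc9), 2 in miR-205 KO mice and 2 in WT mice (Hoxb7 and Hoxc9 in each). Hoxa4 was counted through rounding only: its intensity of 26 on lncKO pituitary array 14 was at the limit and not above it. In skin, 7 members were above background in lncKO mice (Hoxa2, Hoxa4, Hoxb2, Hoxb7, Hoxc9, Hoxd8 and Hoxd10), 6 in miR-205 KO mice (the same without Hoxa4) and 4 in WT mice (Hoxa2, Hoxa4, Hoxb2 and Hoxd8). Over all 19572 named probe sets the share above background was 61.7% to 63.4% in every group. With the stricter 99th percentile as the limit the pituitary groups held 0 such members each, and lncKO, miR-205 KO and WT skin held 4, 3 and 2.

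**Figure D1:**
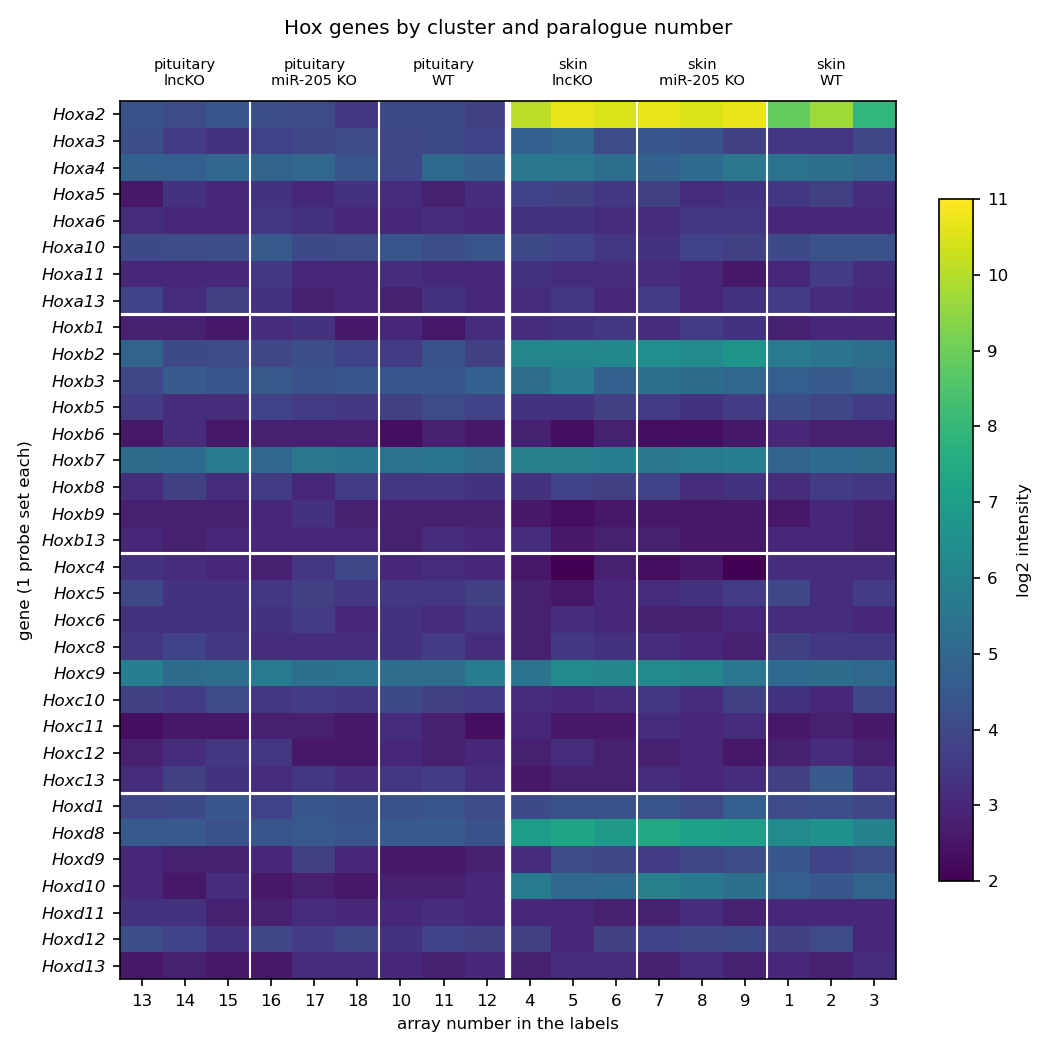
Log2 intensity of the 33 Hox genes (rows, by cluster and paralogue number; white lines part the clusters) on the 18 arrays (columns, by array number and group). Hoxa2 stands out in skin, with Hoxb2 and Hoxd8 above the pituitary arrays as well, while 24 genes stay between intensities of 4 and 26 throughout.

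The labelled tissues matched their markers. The mean log2 intensity of 7 pituitary hormone genes was 18.03 to 18.57 on pituitary arrays and 3.87 to 5.70 on skin arrays, and that of 5 epidermal keratin genes 3.83 to 4.23 and 14.97 to 15.74. The mean of 3 Y chromosome genes was 9.32 to 9.93 on pituitary arrays and 2.66 to 3.32 on skin arrays, although both are labelled female, so sex and tissue cannot be told apart in any contrast of pituitary with skin. Within skin, WT arrays 1 and 2 stood apart in 22 hair shaft and root sheath genes, with mean log2 intensities of 6.49 and 7.09, against 4.31 to 4.84 in the 6 knockout arrays and 4.55 in WT array 3. In bulk tissue, fewer cells of a type and less RNA per cell cannot be told apart.

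Both knockouts of a tissue were set against the same 3 WT arrays, so their fold changes share those values and are given side by side only. In lncKO skin 5 Hox genes rose (15.2% of 33) and 1 fell (3.03%), beside 6.21% of all named probe sets that rose and 9.17% that fell. In miR-205 KO skin 6 rose (18.2%) and 1 fell (3.03%), beside 6.79% and 10.0% of all. The threshold was an adjusted p of 0.05 by limma with Benjamini-Hochberg adjustment over 19572 probe sets. The median log2 fold change of the 33 members, of which 24 were below background on all 18 arrays, was 0.00 in lncKO skin and -0.05 in miR-205 KO skin. The medians over all probe sets were -0.07 and -0.07. These medians moved with the scaling: after quantile normalization they were 0.14 and 0.11 for the members, beside 0.02 and 0.02 over all, and after centring each array on its median 0.09 and 0.04, beside 0.02 and 0.02. The split of all calls depended on it too: 1215 higher and 1794 lower in lncKO skin became 1524 and 1509 after quantile normalization and 1546 and 1403 after median centring, and 1328 higher and 1965 lower in miR-205 KO skin became 1627 and 1631, and 1681 and 1586.

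Hoxa2 gave the largest fold change of any Hox gene in the skin of both knockouts. Its intensities were 1070, 1621 and 1424 in lncKO skin and 1713, 1450 and 1687 in miR-205 KO skin, against 471, 843 and 250 in WT skin. All 6 knockout arrays lay above all 3 WT arrays, and the WT arrays were the most scattered, with an SD of 0.88 on the log2 scale against 0.31 in lncKO and 0.13 in miR-205 KO skin. The log2 fold change was 1.55 ± 0.35 in lncKO skin (2.92-fold, SE, n = 3 each, limma adjusted p = 0.0123) and 1.80 ± 0.35 in miR-205 KO skin (3.48-fold, adjusted p = 0.00554). In lncKO skin the value ranged from 1.10 to 1.98 when single arrays were left out, and it was 2.43 without WT arrays 1 and 2, in both cases past the threshold. Raising all values to a floor of 16 left the lncKO value at 1.55 with an adjusted p of 0.0703. For miR-205 KO the value without WT arrays 1 and 2 was 2.69 (adjusted p = 0.00197), and no alternative ended the call.

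Hoxb2, which patterns the hindbrain and the second pharyngeal arch, had intensities of 70, 70 and 72 in lncKO skin and 85, 79 and 102 in miR-205 KO skin, against 54, 44 and 38 in WT skin. Its groups did not overlap. The log2 fold change was 0.97 ± 0.21 in miR-205 KO skin (1.96-fold, limma adjusted p = 0.00927), a call that every alternative kept, with values of 0.85 to 1.21. In lncKO skin the value of 0.66 ± 0.21 had an adjusted p of 0.0557 and did not pass. This does not show that the knockouts differed: the lncKO minus miR-205 KO difference was -0.32 ± 0.21 on the log2 scale (adjusted p = 1).

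Hoxb3, of the neighbouring paralogue group, had 37, 52 and 28 in lncKO skin and 40, 36 and 31 in miR-205 KO skin, against 26, 24 and 29 in WT skin, with log2 fold changes of 0.52 ± 0.25 (adjusted p = 0.170) and 0.43 ± 0.25 (adjusted p = 0.248). Hoxa4, which acts in the neck and upper trunk, had 49, 47 and 38 in lncKO skin and 28, 35 and 47 in miR-205 KO skin, against 41, 40 and 33 in WT skin. Its groups overlapped, and the log2 fold changes were 0.23 ± 0.24 (adjusted p = 0.544) and -0.08 ± 0.24 (adjusted p = 0.858).

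Hoxd8 and Hoxd10 are members of the Hoxd cluster that act in the trunk and the limb. Hoxd8 had 123, 157 and 117 in lncKO skin and 172, 134 and 129 in miR-205 KO skin, against 77, 94 and 64 in WT skin, without overlap. The log2 fold change was 0.76 ± 0.23 in lncKO skin (1.70-fold, limma adjusted p = 0.0422) and 0.89 ± 0.23 in miR-205 KO skin (1.86-fold, adjusted p = 0.0202). The lncKO call ended without WT array 1 (adjusted p = 0.0800), WT array 3 (0.131), lncKO array 4 (0.0774), 5 (0.121) or 6 (0.0651), and also with the floor of 16 (0.0559), robust eBayes with trend (0.0625) and only the groups compared (0.0715). The miR-205 KO call ended without WT array 3 (0.0708) or miR-205 KO array 7 (0.0884). Without WT arrays 1 and 2 together both calls ended (adjusted p = 0.0851 in lncKO and 0.0553 in miR-205 KO skin).

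Hoxd10 had 53, 33 and 34 in lncKO skin and 60, 50 and 40 in miR-205 KO skin, against 26, 22 and 30 in WT skin, where only 1 of 3 arrays exceeded background. It was called higher in miR-205 KO skin (limma adjusted p = 0.0247) and not in lncKO skin (adjusted p = 0.129), and no fold is given against these WT values. Its miR-205 KO call ended without WT array 2 (adjusted p = 0.0825), miR-205 KO array 7 (0.104) or 8 (0.0684), without WT arrays 1 and 2 together (0.264) and with the floor of 16 (0.0569).

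Hoxb7 and Hoxc9, trunk-level members of different clusters, were near the background limit in WT skin, with 2 of 3 WT arrays above it. Hoxb7 had 61, 60 and 58 in lncKO skin and 49, 53 and 58 in miR-205 KO skin, against 30, 35 and 36 in WT skin. The log2 fold change was 0.83 ± 0.20 in lncKO skin (1.78-fold, limma adjusted p = 0.0147), a call that held without each single array and ended without WT arrays 1 and 2 together (0.73, adjusted p = 0.161). In miR-205 KO skin the value was 0.66 ± 0.20 (1.59-fold, adjusted p = 0.0368), and leaving out any of the 6 arrays compared ended the call (adjusted p from 0.0600 to 0.105), as did leaving out WT arrays 1 and 2 together (0.262).

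Hoxc9 had 44, 76 and 68 in lncKO skin and 76, 68 and 46 in miR-205 KO skin, against 34, 36 and 32 in WT skin. The groups did not overlap, though the lowest array of each knockout came close to the WT arrays. The log2 fold change was 0.85 ± 0.26 in lncKO skin (1.80-fold, limma adjusted p = 0.0451) and 0.87 ± 0.26 in miR-205 KO skin (1.82-fold, adjusted p = 0.0390). In lncKO skin the call held without lncKO array 4 and ended without any other single array (adjusted p up to 0.136), and in miR-205 KO skin it held without miR-205 KO array 9 and ended without any other (adjusted p up to 0.149). Both calls also ended without WT arrays 1 and 2 together (adjusted p = 0.189 and 0.169).

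**Figure D2:**
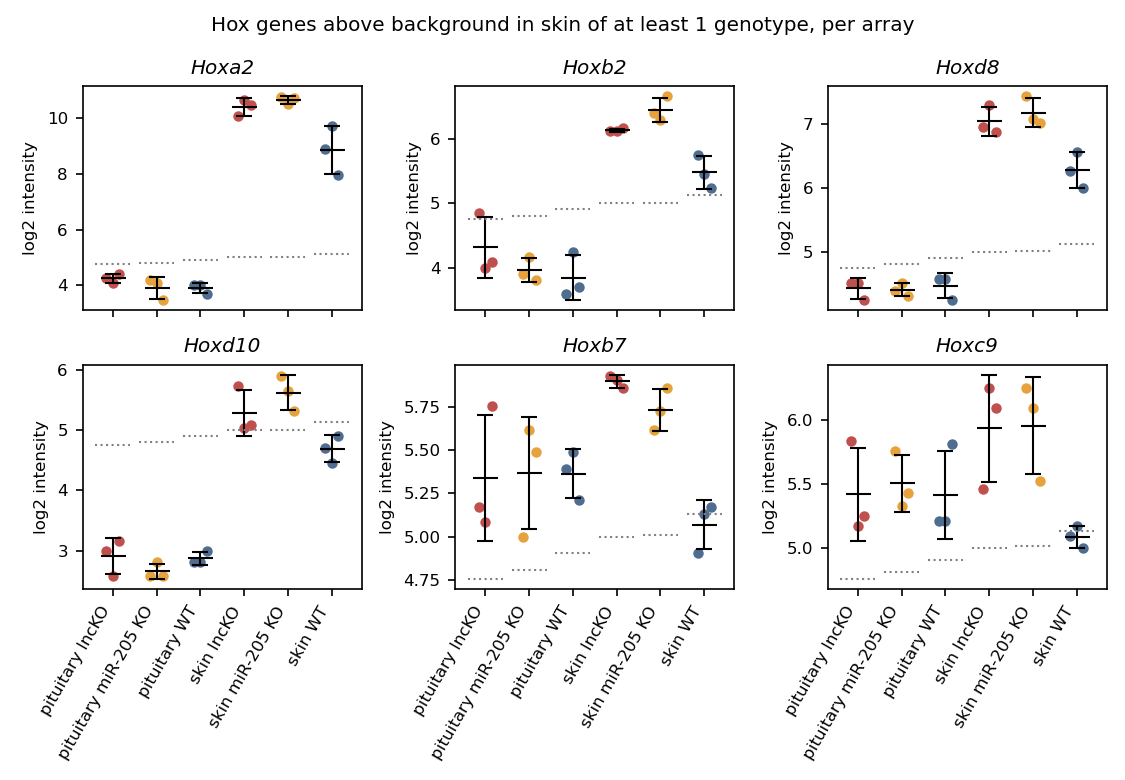
Log2 intensity per array of the Hox genes Hoxa2, Hoxb2, Hoxd8, Hoxd10, Hoxb7 and Hoxc9 in the 6 groups (points: arrays; bars: mean ± SD, n = 3; dotted lines: the highest background limit among the 3 arrays of a group). Each panel has its own axis. Knockout skin lies above WT skin in every panel, and Hoxa2, Hoxb2, Hoxd8 and Hoxd10 lie lower in pituitary than in skin.

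Calls on 3 further members rested on values below background on most or all arrays, so no fold is given. Hoxa3, which patterns pharyngeal arch derivatives, had 27, 33 and 17 in lncKO skin and 22, 19 and 13 in miR-205 KO skin, against 11, 11 and 15 in WT skin, and was called higher in lncKO skin (limma adjusted p = 0.0307). Hoxc13, the Hox gene of the hair follicle that controls hair keratin genes, had 6, 7 and 7 in lncKO skin and 9, 8 and 9 in miR-205 KO skin, against 13, 24 and 11 in WT skin, and was called lower in lncKO skin (adjusted p = 0.0125). Its highest WT array, number 2, was also the highest in hair shaft and root sheath genes, and the call ended without WT arrays 1 and 2 (adjusted p = 0.166); the part of the hair genes was not tested. Hoxc4 had 6, 4 and 7 in lncKO skin and 5, 6 and 4 in miR-205 KO skin, against 9, 9 and 9 in WT skin, and was called lower in miR-205 KO skin (adjusted p = 0.0315). The Hoxa3 call ended without WT array 1 (adjusted p = 0.0766) or 2 (0.0870) or lncKO array 4 (0.0912) or 5 (0.105), and the calls on Hoxa3 and Hoxc4 ended without WT arrays 1 and 2 together (0.334 and 0.187). The Hoxc4 call held, among single arrays left out, only without miR-205 KO array 8. With the floor of 16 the Hoxc4 difference was 0.00 and the calls on Hoxa3 and Hoxc13 ended (adjusted p = 0.170 and 0.497).

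**Figure D3:**
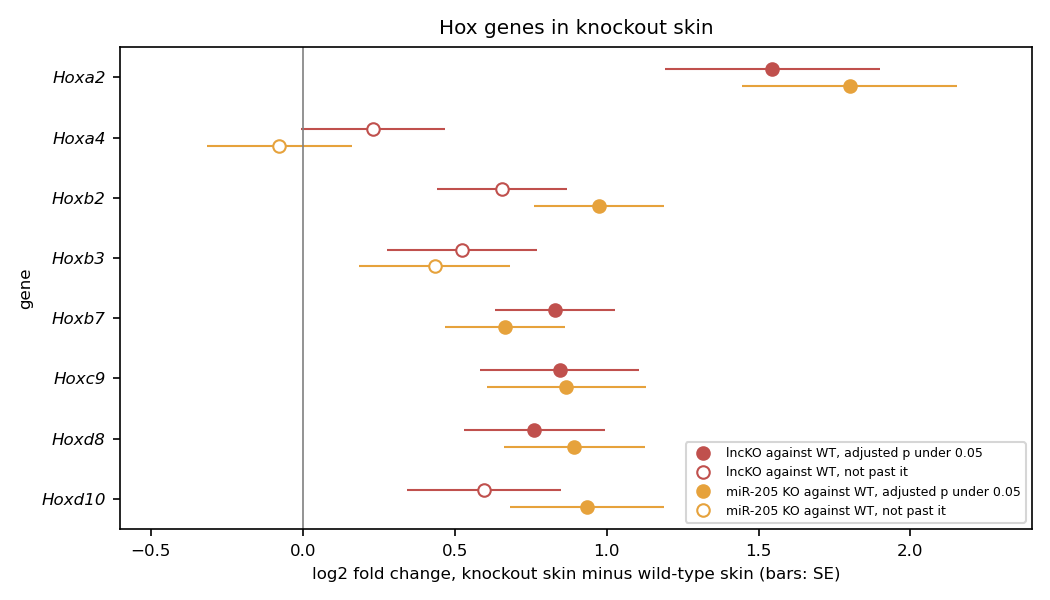
Log2 fold change of 8 Hox genes in lncKO skin and miR-205 KO skin against WT skin (points; bars: SE; filled points passed an adjusted p of 0.05). Hoxa2 lies at 1.55 and 1.80, and Hoxb2, Hoxb7, Hoxc9 and Hoxd8 lie between 0.66 and 0.97; Hoxb3 and Hoxd10 are set against WT values of which 1 of 3 was above background, and both knockouts share the WT arrays.

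No Hox gene was called different between lncKO and miR-205 KO skin (0 of 33, beside 0.00% of all probe sets by limma). Of the 33, 1 had an unadjusted p under 0.05, as did 637 of all 19572 probe sets. For Hoxa2 the lncKO minus miR-205 KO difference was -0.25 ± 0.35, for Hoxd8 -0.13 ± 0.23, for Hoxb7 0.17 ± 0.20, for Hoxc9 -0.02 ± 0.26 and for Hoxd10 -0.34 ± 0.25 on the log2 scale. Differences of the size of the standard errors could not be resolved with 3 arrays per group.

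Cartilage and adipocyte markers were also higher in knockout skin, and the other marker lists were so less or not at all. Of 22 hair shaft and root sheath genes 0 were called higher, and 6 were called lower in lncKO and 5 in miR-205 KO skin. Lower calls over all named probe sets were 9.17% and 10.0%. The mean log2 intensity of 10 cartilage genes was 8.28 to 8.92 in lncKO and 8.23 to 8.45 in miR-205 KO skin, against 6.93 to 7.55 in WT skin, and 7 of 10 were called higher in lncKO and 6 in miR-205 KO skin. Over all named probe sets 6.21% were called higher in lncKO and 6.79% in miR-205 KO skin, which is the share to set beside each list here. Acan, the main proteoglycan of cartilage, had 9429, 18981 and 13184 in lncKO and 17017, 11962 and 16338 in miR-205 KO skin, against 1097, 3284 and 1763 in WT skin. Col2a1, the collagen that defines cartilage, was at 12 to 22 on all 9 skin arrays, below background. Of 6 adipocyte genes 4 were called higher in each knockout. Their mean was 12.27 to 13.05 in lncKO and 12.20 to 13.24 in miR-205 KO skin, against 10.36 to 12.05 in WT skin. Of 9 dermal fibroblast genes only Dpt and Dcn were called higher, in each knockout, and the median log2 fold change of the 9 was 0.49 in lncKO and 0.12 in miR-205 KO skin. The mean log2 intensity of the 9 was 13.73 to 14.04 in lncKO and 13.53 to 14.02 in miR-205 KO skin. In WT skin it was 13.27 to 13.50, without overlap. Dpt, a matrix protein gene, had 196990 to 245284 in lncKO and 233641 to 253664 in miR-205 KO skin, against 44787 to 62305 in WT skin. The means of 9 skeletal muscle genes overlapped (11.66 to 13.35 and 12.19 to 13.01, against 11.89 to 12.75). The part of tissue makeup in the Hox values was not tested.

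**Figure D4:**
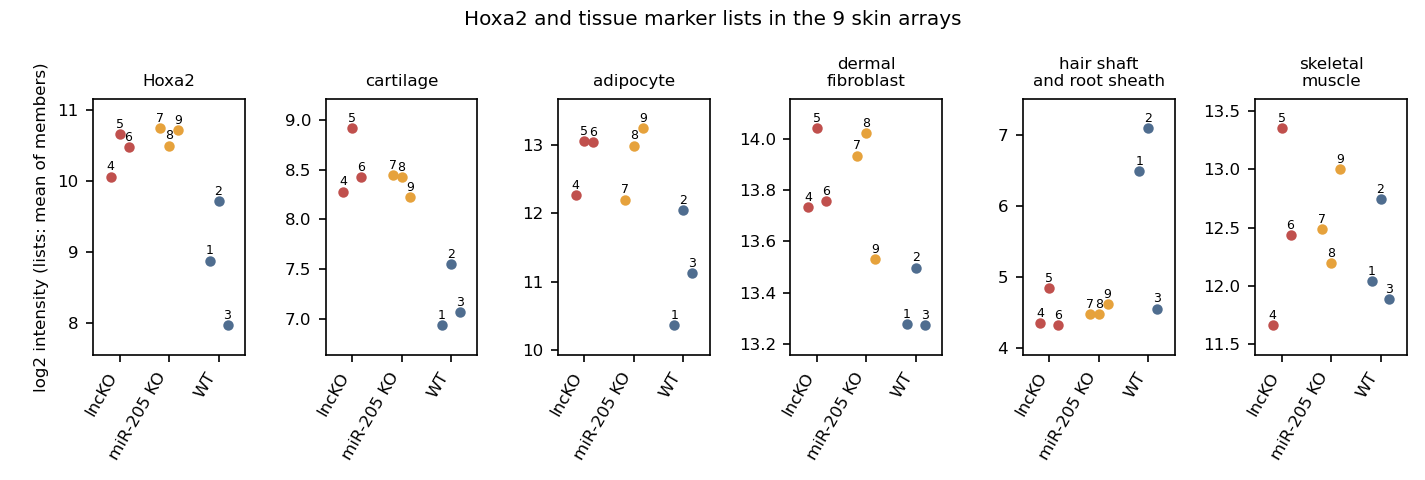
Log2 intensity of Hoxa2 and mean log2 intensity of 5 marker lists on the 9 skin arrays (points, numbered as in the labels). Hoxa2 and the means of cartilage, adipocyte and dermal fibroblast genes are higher on all 6 knockout arrays than on all 3 WT arrays. Hair genes are highest on WT arrays 1 and 2.

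In pituitary no Hox gene was called in either knockout. A change could go unseen in the 28 members that were below background on all 9 pituitary arrays. In lncKO pituitary 0 of 33 members were called by limma, beside 0.700% of all probe sets, and 2 had an unadjusted p under 0.05 (lowest adjusted p = 0.239). In miR-205 KO pituitary it was 0 of 33, beside 0.107%, with 1 unadjusted p under 0.05 (lowest adjusted p = 0.576), and between lncKO and miR-205 KO pituitary 0 of 33, beside 0.291%, with 2 (lowest adjusted p = 0.418). Of all 19572 probe sets, 2447, 1462 and 2182 had an unadjusted p under 0.05 in these comparisons, in the same order. The counts of called members stayed 0 under every alternative that was run.

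Hoxb7 and Hoxc9 were the members above background on all 9 pituitary arrays. Hoxb7 had 36, 34 and 54 in lncKO and 32, 49 and 45 in miR-205 KO pituitary, against 42, 45 and 37 in WT pituitary, with log2 fold changes of -0.03 ± 0.22 and 0.00 ± 0.22. Hoxc9 had 57, 36 and 38 in lncKO and 54, 40 and 43 in miR-205 KO pituitary, against 37, 37 and 56 in WT pituitary, with log2 fold changes of 0.01 ± 0.23 and 0.09 ± 0.23. The groups of both genes overlapped fully. Hoxa4 had 28, 26 and 32 in lncKO and 30, 31 and 20 in miR-205 KO pituitary, against 15, 34 and 27 in WT pituitary, with log2 fold changes of 0.25 ± 0.28 and 0.14 ± 0.28. A further 28 members were below background on all 9 pituitary arrays, at intensities of 5 to 24.

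Between the tissues, 6 of 33 Hox genes were lower in WT pituitary than in WT skin (18.2%, beside 26.4% of all probe sets) and 0 were higher (beside 25.7%). An unadjusted p under 0.05 in either direction was reached by 7 members, and by 10986 of all 19572 probe sets. Hoxa2 had 16, 16 and 13 in WT pituitary, against 471, 843 and 250 in WT skin, and was at least 16.8-fold lower (limma adjusted p = 1.85e-11). Hoxd8 had 24, 24 and 19 in WT pituitary, against 77, 94 and 64 in WT skin, and was at least 2.80-fold lower (adjusted p = 1.24e-07). Hoxb2 had 12, 19 and 13, against 54, 44 and 38, and was at least 1.62-fold lower (adjusted p = 4.47e-06). These bounds set the WT skin mean against the background limit of the pituitary arrays, below which the pituitary values lay.

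Hoxd10 (7, 7 and 8 in WT pituitary, against 26, 22 and 30 in WT skin; adjusted p = 5.54e-07) and Hoxd9, another trunk and limb member (6, 6 and 7, against 22, 14 and 17; adjusted p = 4.41e-05), were called lower; the pituitary values were below background, as were all WT skin values of Hoxd9 and 2 of 3 of Hoxd10, so no fold is given. The Hoxd9 call ended with the floor of 16 (adjusted p = 0.0888). Hoxa4 had 15, 34 and 27 in WT pituitary, against 41, 40 and 33 in WT skin, a log2 difference of -0.66 ± 0.27 (adjusted p = 0.0453) between groups that overlapped. Without WT pituitary array 10 it was -0.32 (adjusted p = 0.326), and 10 of 13 alternatives ended the call, those without WT skin array 1 or 2 or WT pituitary array 12 among them. For Hoxb7 and Hoxc9 WT pituitary minus WT skin was 0.30 ± 0.21 (adjusted p = 0.250) and 0.32 ± 0.25 (adjusted p = 0.317).

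Whether a knockout effect differed between the tissues was tested as an interaction over all 18 arrays, as the effect in pituitary minus the effect in skin. For lncKO 2 of 33 members passed (beside 9.25% of all probe sets) and for miR-205 KO 4 of 33 (beside 9.95%). For Hoxa2 the difference was -1.20 ± 0.44 for lncKO (limma adjusted p = 0.0899) and -1.79 ± 0.44 for miR-205 KO (adjusted p = 0.0144). The pituitary values of Hoxa2 were below background in all 3 genotypes, at 11 to 21.

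The list of Hox partner genes holds the Pbx, Meis and Pknox homeodomain proteins that bind DNA together with Hox proteins, and 8 of them were measured. In lncKO skin 1 of 8 rose and 0 fell, and in miR-205 KO skin 0 were called, with medians of 0.04 and 0.12 on the log2 scale. Of all probe sets 6.21% were higher and 9.17% lower in lncKO skin, and 6.79% and 10.0% in miR-205 KO skin. Meis1, which marks proximal parts of the limb, rose in lncKO skin by 0.81 ± 0.23 (limma adjusted p = 0.0356), with 5875, 5865 and 6996 in lncKO skin against 2891, 3863 and 4042 in WT skin. In miR-205 KO skin it had 5670, 6731 and 4333 and did not pass. Between WT pituitary and WT skin, 5 of the 8 were higher and 2 lower in pituitary, beside 25.7% and 26.4% of all probe sets. Of the 6 ParaHox genes, relatives of the Hox clusters that act in the gut and the nervous system, 0 were called in the skin of either knockout (1 and 0 with an unadjusted p under 0.05). Of all 19572 probe sets 6055 in lncKO and 6284 in miR-205 KO skin had such a p.

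Of 15 Polycomb genes, which encode repressors of Hox clusters, 1 was higher and 2 were lower in lncKO skin, and 2 were higher and 1 lower in miR-205 KO skin (6.67% and 13.3%, 13.3% and 6.67%), near the shares over all probe sets (6.21% and 9.17%, 6.79% and 10.0%); the medians were -0.31 and -0.13. Ezh2, the enzyme that places the repressive mark on histone H3, had 4750, 3076 and 2688 in lncKO skin and 4897, 3425 and 3990 in miR-205 KO skin, against 1933, 1395 and 896 in WT skin. All knockout arrays were higher, with log2 fold changes of 1.34 ± 0.30 (limma adjusted p = 0.0118) and 1.60 ± 0.30 (adjusted p = 0.00476). Ring1, the ubiquitin ligase of the other Polycomb complex, fell in both (25, 29 and 26 in lncKO skin and 30, 27 and 28 in miR-205 KO skin, against 51, 63 and 42 in WT skin), to values at or below the background limit in the knockouts. Phc2, a subunit of the same complex, fell by 0.84 log2 units in lncKO skin (adjusted p = 0.0283), and Cbx2, its reader of the mark, rose in miR-205 KO skin by 0.74 (adjusted p = 0.0394).

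Of 9 Trithorax genes, 1 rose (11.1%) and 0 fell in each knockout, beside 6.21% and 9.17% of all probe sets in lncKO and 6.79% and 10.0% in miR-205 KO skin, and the medians were -0.14 and -0.16. The gene was Psip1, which tethers the Kmt2a methyltransferase complex to chromatin. It had 14968, 14041 and 11697 in lncKO skin and 21262, 14189 and 19001 in miR-205 KO skin, against 6202, 7647 and 5573 in WT skin, with log2 fold changes of 1.07 ± 0.23 (limma adjusted p = 0.00941) and 1.48 ± 0.23 (adjusted p = 0.00166). The other 8 Trithorax genes did not pass in either knockout.

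Of 14 retinoic acid genes, 1 was higher and 4 were lower in lncKO skin and 1 was higher and 3 were lower in miR-205 KO skin (7.14% and 28.6%, 7.14% and 21.4%), beside 6.21% and 9.17%, and 6.79% and 10.0%, of all probe sets. The medians were -0.38 and -0.45. Rarb, a retinoic acid receptor gene that is itself switched on by retinoic acid, had 18, 20 and 16 in lncKO skin and 13, 17 and 12 in miR-205 KO skin, below background in both, against 92, 61 and 117 in WT skin. It fell in both knockouts (limma adjusted p = 2.64e-04 and 1.14e-04). Rarb had 883 to 2647 on pituitary arrays, and the mean of 7 pituitary hormone genes was 3.87 to 4.21 in knockout skin against 4.37 to 5.70 in WT skin, where Gh had 2501, 29 and 76 on arrays 1 to 3; their part in the Rarb values was not tested. Aldh1a3, an enzyme that makes retinoic acid, was called higher in both (adjusted p = 0.0142 and 0.0205), with 69, 92 and 59 in lncKO skin and 51, 74 and 80 in miR-205 KO skin, against 33, 26 and 42 in WT skin, of which not all were above background. Crabp1, a binding protein for retinoic acid, fell by 1.94 in lncKO skin (adjusted p = 0.0147) and by 1.79 in miR-205 KO skin (adjusted p = 0.0198), Crabp2 fell in both (adjusted p = 0.0460 and 0.0211) and the receptor gene Rxrg fell in lncKO skin (adjusted p = 0.0404).

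The 16 genes that flank the Hox clusters gave 0 higher and 1 lower call in each knockout (6.25% lower, beside 9.17% of all probe sets in lncKO and 10.0% in miR-205 KO skin): Snx10, near the Hoxa cluster, fell by 0.84 in lncKO skin (limma adjusted p = 0.0289) and Snx11, near the Hoxb cluster, fell by 0.76 in miR-205 KO skin (adjusted p = 0.0468). Of the noncoding genes inside the clusters 2 were measured. Hoxd3os1, transcribed from the Hoxd cluster, had 94, 90 and 35 in lncKO skin and 122, 45 and 53 in miR-205 KO skin, against 22, 30 and 22 in WT skin. It was called higher in both (adjusted p = 0.0319 and 0.0308), and no fold is given, as 1 of 3 WT skin arrays was above background. Hoxa11os stayed at 7 to 14 on all skin arrays.

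Of 22 other head and limb patterning genes, 4 were higher and 4 lower in lncKO skin and 5 higher and 4 lower in miR-205 KO skin (18.2% and 18.2%, 22.7% and 18.2%, beside 6.21% and 9.17%, 6.79% and 10.0% of all probe sets), with medians of 0.31 and 0.51. Dlx6, a homeobox gene of the lower jaw and the limb ridge, had 546, 693 and 746 in lncKO skin and 831, 639 and 1019 in miR-205 KO skin, against 227, 458 and 293 in WT skin, and rose by 1.07 ± 0.28 (limma adjusted p = 0.0229) and 1.38 ± 0.28 (adjusted p = 0.00652). Shox2, a limb and palate gene, and Tbx5, a forelimb and heart gene, were called higher in both knockouts (adjusted p of 0.0125 and 0.00509 for Shox2, 0.0155 and 0.0143 for Tbx5) over WT values near or below background, 21 to 28 for Shox2 and 11 to 16 for Tbx5. Pitx1, a homeobox gene of the hindlimb and of the pituitary, had 15, 10 and 9 in lncKO skin and 12, 9 and 10 in miR-205 KO skin, against 43, 66 and 57 in WT skin, and fell (adjusted p = 2.35e-04 and 1.67e-04). Pitx1 had 935 to 1614 on pituitary arrays, and the part of the hormone gene levels given for WT skin was not tested here either. Hmx1, an eye and ear homeobox gene, and Msx1, a gene of limb and facial outgrowth, were called lower in both knockouts, to values near or below background (adjusted p of 0.0143 and 0.0156 for Hmx1, 0.00609 and 0.0216 for Msx1).

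In pituitary 0 genes of the partner, ParaHox, Polycomb, Trithorax, retinoic acid, flanking, noncoding and patterning lists were called in either knockout by limma. Of all probe sets only 0.700% were called in lncKO and 0.107% in miR-205 KO pituitary. Over the 8 lists 12 genes in lncKO and 3 in miR-205 KO pituitary had an unadjusted p under 0.05 (lowest limma adjusted p = 0.0637 and 0.444). Of all 19572 probe sets 2447 and 1462 had such a p.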

How the data were processed

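The authors deposited 1 intensity per probe set and array, in whole numbers on a linear scale, for 22206 probe sets with values from 4 to 1243875; how they were background-corrected, summarised and normalized is not stated in the sources used here. Array medians were 82 to 96. Symbols came from the platform annotation, updated through RefSeq (GRCm38.p6): 19572 probe sets had exactly 1 symbol and 2634 had none. The deposited intensities were log2 transformed without a pseudocount and not normalized again. limma 3.58.1 in R 4.3.3 (lmFit, eBayes, two-sided) was fitted over the 9 arrays of a tissue, which leaves 6 residual degrees of freedom, and over all 18 arrays for the tissue contrast and the interactions, with Benjamini-Hochberg adjustment over 19572 probe sets. The limma fit was tested on simulated data for the skin contrast of lncKO against WT only. Log2 fold changes carry standard errors (SE). The number of arrays limits the precision. A fold against a group below background on all 3 arrays is given as a bound or left out.

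Members, gene lists and tests were chosen with earlier results of these data known. Values per array were given for every member called in a knockout comparison or above background in a WT group and for the called members with the largest tissue differences, and up to 4 genes by smallest p per comparison of each other list; Hoxb3 and the list genes whose second knockout is given beside the first were added after their values were seen. Alternatives were quantile normalization, median centring, a floor of 16, a filter at a mean log2 intensity of 5, eBayes with trend, other sets of arrays and leaving out single arrays. No array number recurs, so no samples were paired.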

Additional observations from a re-analysis of the deposited data

Results flagged for a closer look

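For 6 Hox genes limma's interaction test of a knockout's effect between pituitary and skin passed the threshold (effect in pituitary minus effect in skin, log2 scale). For miR-205 KO the difference was -1.79 for Hoxa2 (adjusted p = 0.0144), -1.15 for Hoxd10 (0.0258), -0.95 for Hoxd8 (0.0363) and 1.20 for Hoxc4 (0.0371). For lncKO it was -1.23 for Hoxa3 (0.0418) and 1.17 for Hoxc13 (0.0359). The values of Hoxa3, Hoxc13 and Hoxc4 are differences between signals nearly all below background and give no size of an effect. The Hoxa2 call for miR-205 KO held under all 19 alternatives, with values of -2.68 to -1.35, and each of the other 5 calls ended under at least 6 alternatives; leaving out single arrays ended the Hoxd10 call in 5 of 12 cases, Hoxc13 in 7, Hoxd8 in 8, Hoxa3 in 9 and Hoxc4 in 10. All 6 genes were below background on all 9 pituitary arrays, and Hoxc13 and Hoxc4 were so on all skin arrays as well. Centring each array on its median moved the median interaction over all probe sets to -0.05 for lncKO and -0.06 for miR-205 KO, against 0.08 and 0.08 as deposited, and turned the split of all calls to 808 higher and 867 lower, against 1151 and 660, for lncKO and to 857 and 1024, against 1225 and 723, for miR-205 KO.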

How the results depend on the processing

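No called Hox gene changed the sign of its difference under the alternatives run, while medians over the 33 members, close to 0, did: in miR-205 KO skin -0.05 as deposited, 0.11 after quantile normalization, 0.04 after median centring and 0.07 without miR-205 KO array 8, and for the miR-205 KO interaction 0.01, against -0.12 and -0.13 with those scalings. Of the changes named per gene, 119 recomputed values in the skin knockout comparisons kept their side of the threshold and 60 lost it, and 121 and 65 did so for the tissue contrast and the interactions. Hox genes called in lncKO skin numbered 6 as deposited, 3 to 5 when single arrays were left out (3 without lncKO array 5), 2 with the floor of 16 and 1 without WT arrays 1 and 2, a setting chosen after seeing the data. In miR-205 KO skin they numbered 7, 2 to 5 without single arrays (4, 3 and 4 without WT arrays 1, 2 and 3, 2 without miR-205 KO array 7 and 4 without array 8), 4 with the floor and 2 without WT arrays 1 and 2. With an arm of 1 array, its spread is assumed to be that of the other groups. Quantile normalization, median centring and a fit over all 18 arrays gave 7, 7 and 8 called Hox genes in lncKO skin. In miR-205 KO skin the same settings gave 6, 7 and 9. The filter on dim probe sets left 8 Hox genes in skin, of which 4 were called in lncKO and 6 in miR-205 KO skin. A gene could pass that filter through high knockout arrays. Calls between lncKO and miR-205 KO skin and in all pituitary knockout comparisons stayed at 0. Between WT pituitary and WT skin the count was 6, and 5 to 8 without single arrays. For the lncKO interaction it was 2, 0 to 2 without single arrays, 0 with the floor, 0 with the filter on dim probe sets, 0 with only the groups compared and 1 without WT arrays 1 and 2. For the miR-205 KO interaction it was 4, 1 to 4 without single arrays, 2 with the filter on dim probe sets and 2 without WT arrays 1 and 2. Hox genes above background in lncKO, miR-205 KO and WT pituitary numbered 3, 2 and 2 (3 to 3, 2 to 3 and 2 to 2 without single arrays), 0, 0 and 0 at the 99th percentile and 5, 5 and 6 at a fixed intensity of 16. The 3 of lncKO pituitary include Hoxa4, which was at the limit and not above it on array 14. In lncKO, miR-205 KO and WT skin they numbered 7, 6 and 4 (7 to 8, 6 to 7 and 4 to 6 without single arrays) and 4, 3 and 2 at the 99th percentile, and in WT skin 8 at a fixed intensity of 16. No paired analysis was possible because no array number recurs between groups. Signal close to background limits most members: 24 of 33 were below it on all arrays.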
